A study of Mus musculus with 6 samples.

Results

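The genes described here are the CD antigens and lectin receptors on a 2-colour mouse array. They are the genes whose single platform symbol begins with Cd and a digit, Clec, Siglec, Lilr or Pilr. Cd14, Cd36, Cd40, Cd74, Cd80, Cd83, Cd86 and Cd2ap were left out, so the counts below are not those of all CD antigens. The rule found 86 genes of 10698 with a single symbol, on 122 probes. RAW 264.7 cells, a mouse macrophage line, were given lipopolysaccharide (LPS, 100 ng/ml) with LPS-binding protein (LBP, 100 pM) for 2 h, against untreated cells of the same line cultured for 2 h. There were 6 arrays, each with RNA of both states. Arrays are named here after the dye of the treated RNA: 3 Cy5 arrays and 3 Cy3 arrays, each numbered by the labels as sets 1 to 3. The labels spell the line both RAW 264.7 and RAW 264.4, and do not state whether each set came from its own culture, so p-values measure only the spread between sets, which may be technical. The same line carried both states, and neither LPS nor LBP was analysed here alone.

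CD antigens are surface proteins of leukocytes and other cells that were numbered by the antibodies that bind them, so they share a naming scheme and not one function. C-type lectin receptors bind sugars and lipids of microbes and dead cells. Activating ones pair with the adaptors FcRγ or DAP12, or carry their own tyrosine motif, and signal through the kinase Syk and the complex of Card9, Bcl10 and Malt1. Siglecs bind sialic acids, and many of them, like the inhibitory members of the paired immunoglobulin-like receptors (Lilr and Pilr), carry motifs that recruit the phosphatases SHP-1, SHP-2 and SHIP1. Macrophages carry members of all these families.

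Values are log2 ratios of treated over untreated cells, with the sign of the Cy3 arrays turned. That the deposited ratios are Cy5 over Cy3 is likely from the channel labels but stated by no source. Exact zeros were taken as no measurement. The 2 arrays of a set were averaged, and means are given ± SD of n = 3 sets. "Higher", "lower" and the like mean a Benjamini-Hochberg adjusted p under 0.05 by limma over all 11231 features. Features are genes, as the mean of their probes measured on all arrays, or probes without a single symbol. A ratio gives no level, so whether a member is expressed in these cells at all cannot be read from it, and depth has no counterpart here beyond the number of arrays. Of 7 macrophage markers, 6 were tested: Adgre1 and Spi1 were higher, Csf1r and Fcgr1 lower, and Cd68 and Lyz2 did not pass.

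Of 86 members, 78 had a probe measured on all 6 arrays and were tested. A total of 11 passed the threshold, which is 14.1% of the tested members, beside 14.8% of all features. Of these, 10 were higher (12.8%, beside 7.35% of all features) and 1 was lower (1.28%, beside 7.45%). The median of the tested members was 0.01 and that of all features 0.00. Among members, 25 of 78 (32.1%) had an unadjusted p under 0.05, beside 28% of all features (3150 of 11231). Changes over 2-fold were found for 3 members, Clec4e, Lilr4b and Lilrb4a, all higher, and for 123 higher and 10 lower features in all. If the ratios in fact ran Cy3 over Cy5, every sign here would turn, with 1 member higher and 10 lower and their shares exchanged. These shares describe the members and are not a test of them against other genes. The shares of all features, 7.35% higher and 7.45% lower, also stand beside the counts of the small groups below. No group was tested as a set. All 11 members past the threshold had the same sign on 6 of 6 arrays. Of the 67 that did not pass, 66 lay within 0.25 of 0, the exception being the costimulatory T cell receptor gene Cd28, and only Cd72 and Cd81 had the same sign on every array.

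**Figure D1:**
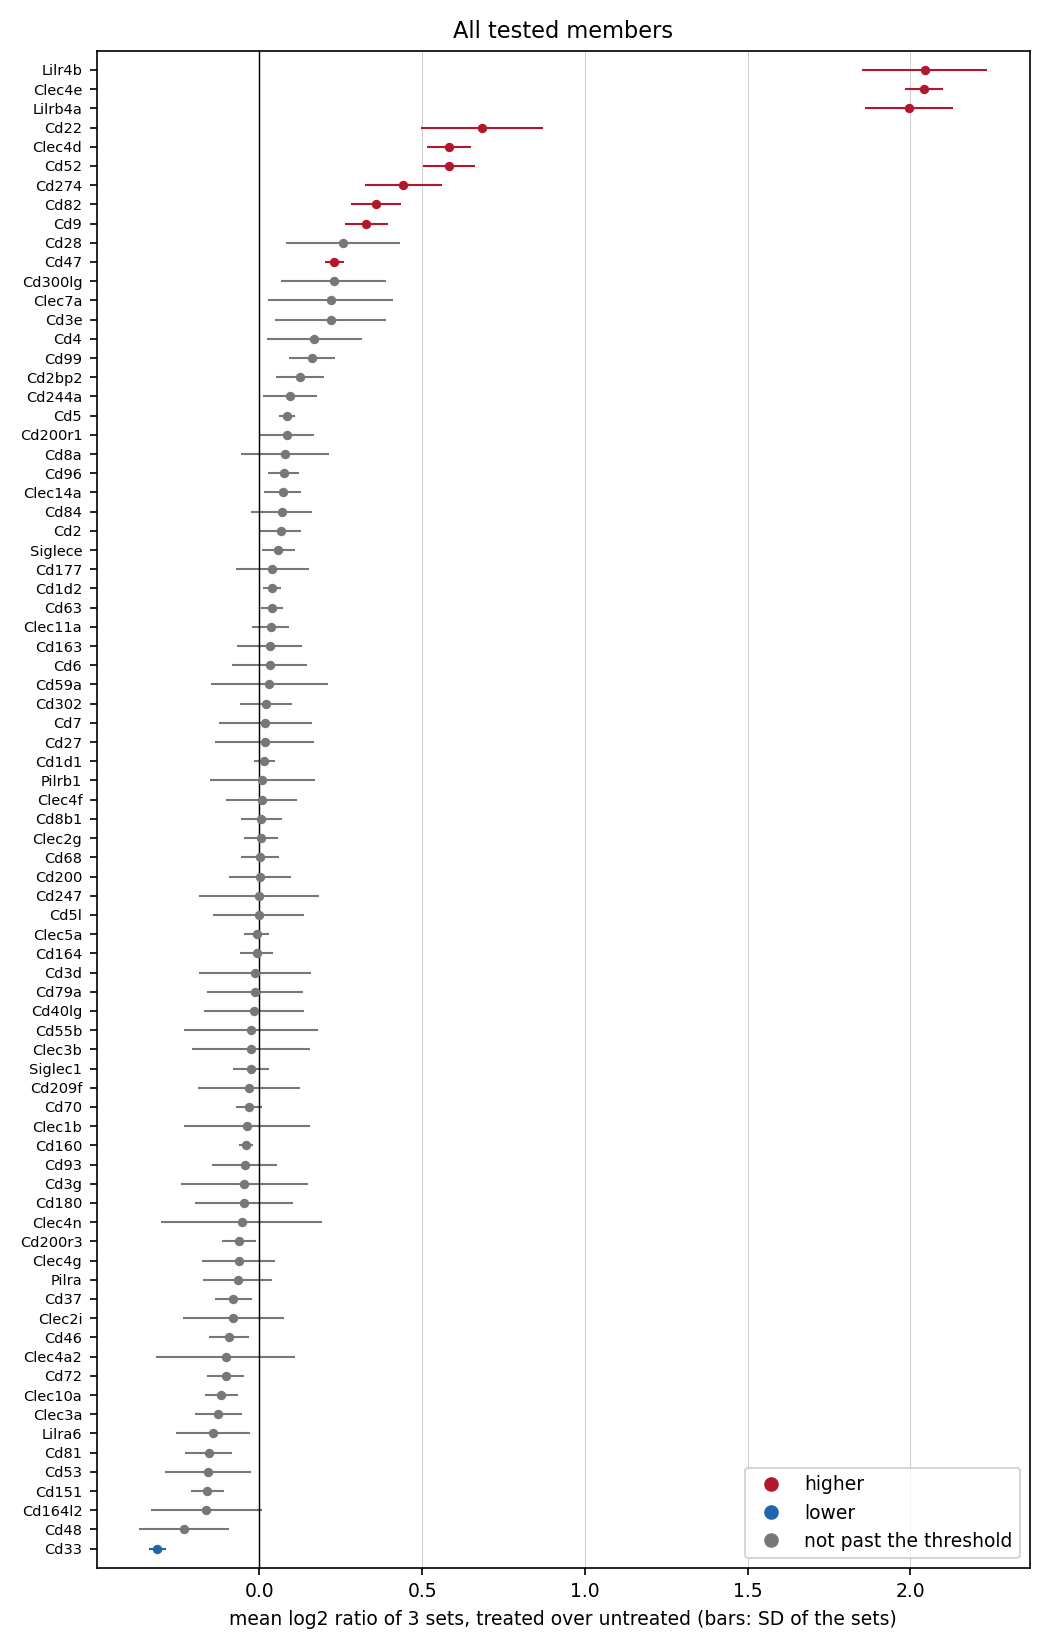
Mean log2 ratio of treated over untreated cells (x axis) of each of the 78 tested members (y axis, sorted by the mean), with bars for the SD of the 3 sets. Clec4e, Lilr4b and Lilrb4a lie near 2, and the other 75 members between -0.31 and 0.68.

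The lectin receptor gene Clec4e and its neighbour Clec4d both rose, and the next gene, Clec4n, did not pass. Clec4e encodes Mincle, an FcRγ-coupled receptor for mycobacterial cord factor and for material of dead cells. It stood at 2.26, 2.44 and 2.34 on the Cy5 arrays of sets 1 to 3, and at 1.73, 1.78 and 1.69 on the Cy3 arrays. All arrays lay far above 0, and the orientations did not overlap, the Cy5 one being higher. The mean was 2.04 ± 0.06, a 4.12-fold rise (adjusted p = 9.16e-06), and Clec4e ranked 31 among 9472 tested genes by the size of the mean in either direction. In a limma fit with a dye term, that term was 0.31 for Clec4e (adjusted p = 0.174), and it passed for 0 of 11231 features (0%), with 2477 (22.1%) at an unadjusted p under 0.05.

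Clec4d encodes MCL, a receptor of the same family that also binds cord factor and can pair with Mincle. Its values were 0.47, 0.60 and 0.56 on the Cy5 arrays, and 0.56, 0.69 and 0.61 on the Cy3 arrays. The orientations overlapped and no array lay near 0. The rise was 0.58 ± 0.07, or 1.50-fold (adjusted p = 0.000759). Clec4n, which encodes the fungal mannan receptor dectin-2, stood at -0.02, -0.59 and -0.01 on the Cy5 arrays and at 0.28, -0.08 and 0.09 on the Cy3 arrays. Its arrays lay on both sides of 0, with a mean of -0.05 ± 0.25 (adjusted p = 0.764). In the RefSeq annotation of GRCm38.p6, Clec4n, Clec4d and Clec4e follow each other on chromosome 6 with 0 coding genes between them, and Clec4a2 lies 1 coding gene away. Clec4a2, which encodes the inhibitory receptor DCIR, was at -0.10 ± 0.21 (adjusted p = 0.487).

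The promoter windows of Clec4e and Clec4d are shown because these neighbours rose together, and that of Lilr4b because it had the largest mean. They run from 250 bases before to 50 bases after the RefSeq start (GRCm38.p6), 5′ to 3′ on the gene's strand. Capitals mark 2 motifs found on either strand: TTGCNNAA, bound by C/EBP factors, and GAGGAA, the core bound by Ets factors such as PU.1.
Clec4e, chr6:123289822-123290121, minus strand: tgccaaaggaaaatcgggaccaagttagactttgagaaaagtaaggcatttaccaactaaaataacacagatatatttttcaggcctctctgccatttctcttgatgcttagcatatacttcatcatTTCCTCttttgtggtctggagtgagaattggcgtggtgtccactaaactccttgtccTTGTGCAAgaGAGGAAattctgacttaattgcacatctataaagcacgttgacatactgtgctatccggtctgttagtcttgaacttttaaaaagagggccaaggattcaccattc
Clec4d, chr6:123261857-123262156, plus strand: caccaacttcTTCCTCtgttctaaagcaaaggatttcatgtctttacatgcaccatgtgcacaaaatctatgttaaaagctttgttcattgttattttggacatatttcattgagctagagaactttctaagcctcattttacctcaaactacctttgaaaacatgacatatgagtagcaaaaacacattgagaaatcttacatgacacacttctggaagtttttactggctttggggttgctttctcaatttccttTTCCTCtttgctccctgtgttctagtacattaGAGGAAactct
Lilr4b, chr10:51480362-51480661, plus strand: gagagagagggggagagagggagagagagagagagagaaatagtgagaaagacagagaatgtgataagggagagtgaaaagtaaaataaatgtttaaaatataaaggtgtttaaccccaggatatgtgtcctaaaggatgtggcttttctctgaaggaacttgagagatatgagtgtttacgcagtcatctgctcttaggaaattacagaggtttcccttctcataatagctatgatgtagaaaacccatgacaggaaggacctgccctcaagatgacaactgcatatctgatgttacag
In the Clec4e window the C/EBP motif begins 66 bases before the start, on the reverse strand, and an Ets core begins 56 bases before it. Another Ets core begins 123 bases before the start. The Clec4d window holds 3 Ets cores and no C/EBP motif, and the Lilr4b window holds neither. The Clec4d window also holds the interferon response motif (ISRE) at its start site, which shares bases with the Ets core that begins 7 bases after the start. The 11 members past the threshold had 13 windows in the table, of which 3 held the C/EBP motif and 4 the Ets core, beside 10.8% and 28.3% of all 32851 windows. Of those 13 windows 4 belong to Cd82 alone, among them 2 of the 3 with the C/EBP motif. Over all members, 17 of 72 windows (23.6%) held the C/EBP motif and 33 (45.8%) the Ets core, and no difference between the members past the threshold and the others was tested. The motif of AP-1 (TGANTCA) and that of NF-κB were in 0 of the 13 windows, beside 7.81% and 8.46% of all. Windows of the table matched 63 of 86 members, and among the members past the threshold Lilrb4a and Cd52 had none. A match is a run of letters and was not tested as a site.

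Of the 6 C-type lectin receptor genes of the activating, Syk-coupled kind, 2 rose, 0 fell and 4 did not pass, with a median of 0.11. Besides Clec4n these were Clec7a, Clec1b and Clec5a. Clec7a, the gene of the β-glucan receptor dectin-1, had 2 probes with means of 0.22 each and a joint mean of 0.22 ± 0.19 (adjusted p = 0.123). It averaged 0.38 on the Cy3 arrays and 0.06 on the Cy5 arrays. Clec1b, the gene of the podoplanin receptor CLEC-2 of platelets and myeloid cells, was at -0.04 ± 0.19 (adjusted p = 0.807).

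The 2 probes of Clec5a, the gene of the DAP12-coupled receptor MDL-1, moved in opposite directions. The probe of AF139769 stood at 0.30, 0.09 and 0.18 on the Cy5 arrays and at 0.44, 0.42 and 0.42 on the Cy3 arrays. The probe of NM_021364 stood at -0.33, -0.67 and -0.36 on the Cy5 arrays and at -0.29, -0.03 and -0.27 on the Cy3 arrays. Every array was positive for one probe and negative for the other. Tested by itself among 13224 probes, of which 15% passed, the first was higher at 0.31 ± 0.06 (adjusted p = 0.00813) and the second lower at -0.32 ± 0.02 (adjusted p = 0.00529). Their mean as a gene, -0.01 ± 0.04 (adjusted p = 0.939), therefore stands for neither probe. Clec5a was the only one of 17 members with several complete probes whose probes lay at least 0.2 from 0 on opposite sides. The median range between the probes of those members was 0.07.

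**Figure D2:**
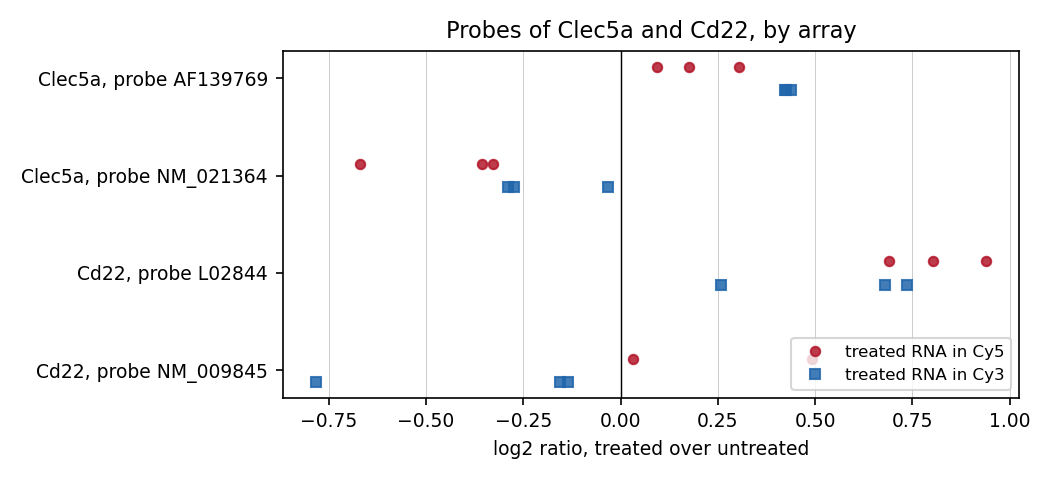
Log2 ratio of treated over untreated cells (x axis) for each measured probe of Clec5a and Cd22 (y axis), 1 point per array, circles for Cy5 arrays and squares for Cy3 arrays. The Clec5a probes lie on opposite sides of 0 on all 6 arrays, and the second Cd22 probe changes side with the dye.

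The paired receptor genes Lilr4b and Lilrb4a, neighbours on chromosome 10 with 0 coding genes between them, both rose about 4-fold. Lilrb4a encodes gp49B, an inhibitory receptor of myeloid cells, mast cells and NK cells, and Lilr4b encodes gp49A, its close relative without the inhibitory motifs. Lilr4b stood at 2.24, 2.25 and 1.81 on the Cy5 arrays, and at 2.17, 1.95 and 1.86 on the Cy3 arrays. Lilrb4a stood at 2.23, 2.22 and 1.89 on the Cy5 arrays, and at 1.93, 1.92 and 1.79 on the Cy3 arrays. For both genes set 3 was the lowest set, and all arrays lay far above 0. The mean was 2.04 ± 0.19 for Lilr4b, or 4.13-fold (adjusted p = 2.8e-05), and 2.00 ± 0.13 for Lilrb4a, or 3.99-fold (adjusted p = 1.63e-05). They ranked 30 and 35 among 9472 tested genes by the size of the mean. A second Lilrb4a probe, measured only on the Cy5 arrays, stood at 2.28, 2.29 and 2.13. The genes are close relatives, and whether the probes tell them apart was not tested, so the 2 rises may not be separate measurements.

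The other paired receptor genes did not pass. Pilra, which encodes an inhibitory receptor, was at -0.07 ± 0.11 (adjusted p = 0.511), and Pilrb1, the gene of its activating counterpart, at 0.01 ± 0.16 (adjusted p = 0.95). Lilra6 was at -0.14 ± 0.11 (adjusted p = 0.169). Thus 2 of the 5 tested genes of this group were higher and 0 lower, with a group median of 0.01.

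**Figure D3:**
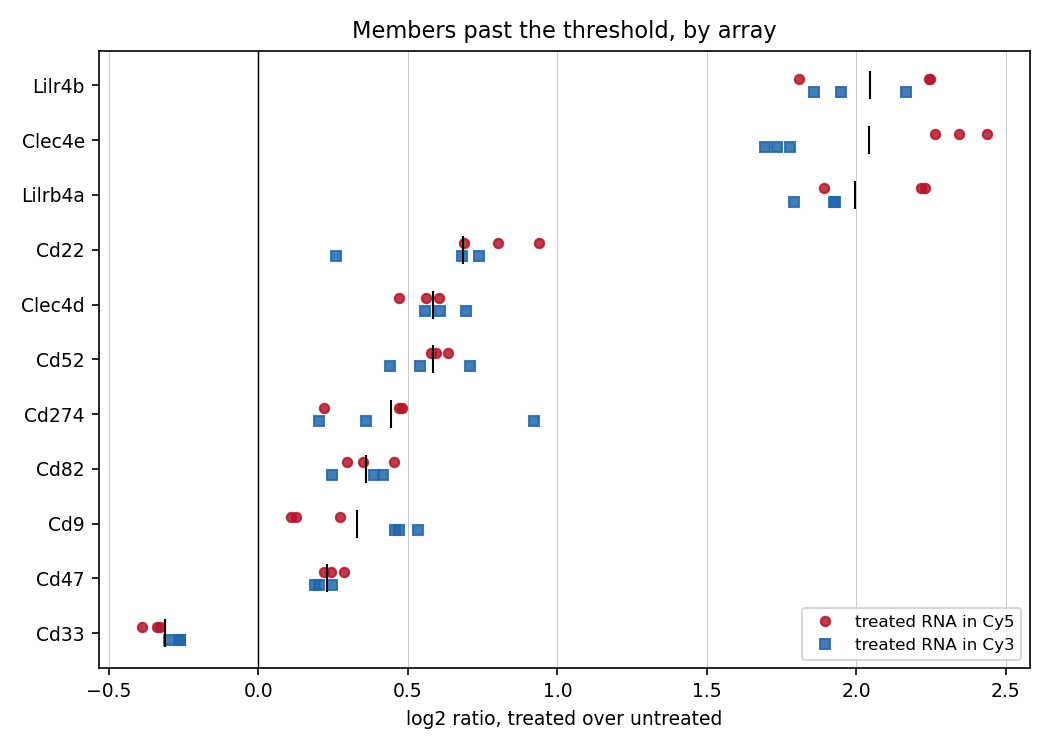
Log2 ratio of treated over untreated cells (x axis) for the 11 members past the threshold (y axis), 1 point per array, circles for Cy5 arrays and squares for Cy3 arrays. The vertical tick is the mean. The 3 uppermost genes lie between 1.69 and 2.44 on every array, and Cd33 is negative on all 6.

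Among 4 genes of sialic acid binding lectins, Cd22 was higher, Cd33 was lower, and Siglece and Siglec1 did not pass. Cd33, an immunoglobulin-like lectin gene of myeloid cells, stood at -0.34, -0.39 and -0.33 on the Cy5 arrays and at -0.26, -0.30 and -0.26 on the Cy3 arrays. The arrays lay close together, and the mean was -0.31 ± 0.03 (1.24-fold lower, adjusted p = 0.00597). It was the only member that fell. Leaving out set 3 gave an adjusted p of 0.0795 for Cd33, and leaving out the Cy5 array of set 2 gave 0.0806. Siglece, the gene of an inhibitory Siglec of mouse myeloid cells, was at 0.06 ± 0.05 (adjusted p = 0.486). Siglec1, the gene of the macrophage adhesion receptor sialoadhesin, was at -0.03 ± 0.05 (adjusted p = 0.777). Siglec1 was positive on every Cy5 array, averaging 0.22, and negative on every Cy3 array, averaging -0.27. Its sign thus changed with the dye orientation, and its dye term by limma was 0.24 (adjusted p = 0.175).

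Cd22 encodes an inhibitory lectin known mainly from B cells. Its complete probe stood at 0.80, 0.69 and 0.94 on the Cy5 arrays and at 0.68, 0.26 and 0.74 on the Cy3 arrays. All arrays were positive, the Cy3 array of set 2 being the lowest. The mean was 0.68 ± 0.19, a 1.61-fold rise (adjusted p = 0.00231). Without the Cy5 array of set 2 the adjusted p was 0.0728. A second Cd22 probe, of NM_009845, had values on 5 arrays: 0.49 and 0.03 on the Cy5 arrays of sets 2 and 3, and -0.15, -0.78 and -0.14 on the Cy3 arrays. Before the signs were turned it leaned to Cy5 on each of them, and its turned mean was -0.11. With both probes Cd22 stood at 0.36 (adjusted p = 0.0446), and at 0.30 (adjusted p = 0.108) with zeros kept as measured.

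Other B cell antigens did not pass. Cd72 was at -0.10 ± 0.06 (adjusted p = 0.222), and Cd79a, a subunit gene of the B cell receptor, at -0.01 ± 0.15 (adjusted p = 0.917). Its partner Cd79b was measured on 4 arrays, between -0.06 and 0.27. The antigens of T and NK cells gave 0 higher and 0 lower genes among 16 tested by limma, with a median of 0.05 and a range from -0.05 to 0.26. The largest from 0 were Cd28 (0.26 ± 0.17, adjusted p = 0.0663 on its complete probe), the T cell receptor complex gene Cd3e (0.22 ± 0.17, adjusted p = 0.101) and Cd4 (0.17 ± 0.15, adjusted p = 0.153). A second Cd28 probe, with values on 3 arrays, averaged -0.25, and with missing values allowed Cd28 stood at 0.12 (adjusted p = 0.56). The complete probes of Cd4 differed, at 0.32 ± 0.08 and 0.02 ± 0.24. The first was higher when probes were tested singly (adjusted p = 0.00912). A further Cd4 probe, with values on 2 arrays, was at -0.32 and -0.43.

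The tetraspanin genes, whose products organise other membrane proteins into microdomains, had 7 tested members, of which 2 were higher and 0 lower, and a median of -0.08. Cd82 stood at 0.45, 0.29 and 0.35 on the Cy5 arrays and at 0.39, 0.25 and 0.42 on the Cy3 arrays. Set 2 was its lowest in both orientations. The mean was 0.36 ± 0.08, or 1.28-fold (adjusted p = 0.00588). Cd9 stood at 0.27, 0.13 and 0.11 on the Cy5 arrays and at 0.53, 0.47 and 0.46 on the Cy3 arrays. All were positive, yet the orientations did not overlap. The mean of Cd9 was 0.33 ± 0.07, or 1.26-fold (adjusted p = 0.00708), against an adjusted p of 0.194 on the Cy5 arrays alone. Cd9 and Cd82 lost the threshold without set 3 (adjusted p of 0.0723 and 0.0863) and without the Cy5 array of set 2 (0.0556 and 0.0714), and Cd9 also without the Cy3 array of set 2 (0.124). Cd151 (-0.16 ± 0.05, adjusted p = 0.0742), Cd53 (-0.16 ± 0.13, adjusted p = 0.159) and Cd81 (-0.16 ± 0.07, adjusted p = 0.0961) were the largest from 0 of those that did not pass.

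Of 8 tested adhesion molecules and surface glycoproteins, 2 were higher and 0 lower, with a median of 0.05. Cd52, the gene of a small lipid-anchored glycoprotein of leukocytes, stood at 0.59, 0.64 and 0.58 on the Cy5 arrays and at 0.44, 0.71 and 0.54 on the Cy3 arrays. The orientations overlapped, and the mean was 0.58 ± 0.08, or 1.50-fold (adjusted p = 0.000876). Cd47 encodes the widely expressed ligand of the phagocyte receptor SIRPα, which restrains engulfment. Its 3 probes had means of 0.20, 0.23 and 0.26, and their average stood at 0.29, 0.24 and 0.22 on the Cy5 arrays and at 0.24, 0.19 and 0.20 on the Cy3 arrays. All arrays lay within a narrow range above 0. The rise was 0.23 ± 0.03, or 1.17-fold (adjusted p = 0.0192), the smallest change among the members past the threshold. Its adjusted p was 0.074 without set 1 and 0.156 without set 3, and between 0.0586 and 0.179 without any single array of sets 1 and 2. Cd48, the gene of a ligand of the SLAM family, was at -0.23 ± 0.14 (adjusted p = 0.0598), and Cd99 at 0.16 ± 0.07 (adjusted p = 0.0865).

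Cd274, the CD200 gene with its receptor genes Cd200r1 and Cd200r3, and Cd300lg were taken as a mixed group of checkpoint ligands and inhibitory or paired receptors, with 1 higher and 0 lower gene among 5 tested and a median of 0.08. Cd274 encodes PD-L1, the ligand of the inhibitory T cell receptor PD-1. It stood at 0.48, 0.22 and 0.47 on the Cy5 arrays and at 0.36, 0.92 and 0.20 on the Cy3 arrays. Every array was positive, and both a low and the highest value came from set 2. The mean was 0.44 ± 0.12, or 1.36-fold (adjusted p = 0.00457), but the adjusted p was 0.118 in the fit to single arrays with a dye term and the set as a block, and 0.0957 and 0.0569 without the Cy5 or the Cy3 array of set 2. Cd200r1, the gene of the inhibitory receptor of CD200 on myeloid cells, was at 0.08 ± 0.08 (adjusted p = 0.354) and Cd200 at 0.00 ± 0.10 (adjusted p = 0.997). Cd300lg was at 0.23 ± 0.16 (adjusted p = 0.0806) and Cd200r3, the gene of an activating, DAP12-coupled relative of the CD200 receptor, at -0.06 ± 0.05 (adjusted p = 0.462).

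Apart from Cd33, antigens of macrophages and dendritic cells did not pass, and the 6 of them lay between -0.05 and 0.03. Cd180, which encodes the TLR4-like receptor RP105, was at -0.05 ± 0.15 (adjusted p = 0.713). Cd163, the gene of the haemoglobin scavenger receptor, was at 0.03 ± 0.10 (adjusted p = 0.761), with means of 0.33 on the Cy5 arrays and -0.26 on the Cy3 arrays. Cd68, which encodes a lysosomal glycoprotein of macrophages, was at 0.00 ± 0.06 (adjusted p = 0.99). Complement regulators, listed together with Cd93, had 0 of 4 tested genes past the threshold in either direction by limma, between -0.09 for Cd46 and 0.03 for Cd59a. Cd93 itself was at -0.05 ± 0.10 (adjusted p = 0.658). Of 10 other C-type lectin genes, 0 passed, with a range from -0.13 for Clec3a to 0.07 for Clec14a. Cd2bp2, whose product is an intracellular binding protein that shares only the prefix, was at 0.13 ± 0.07 (adjusted p = 0.164). The 4 members outside these groups, Cd1d1, Cd1d2, Cd40lg and Cd70, lay between -0.03 and 0.04.

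**Figure D4:**
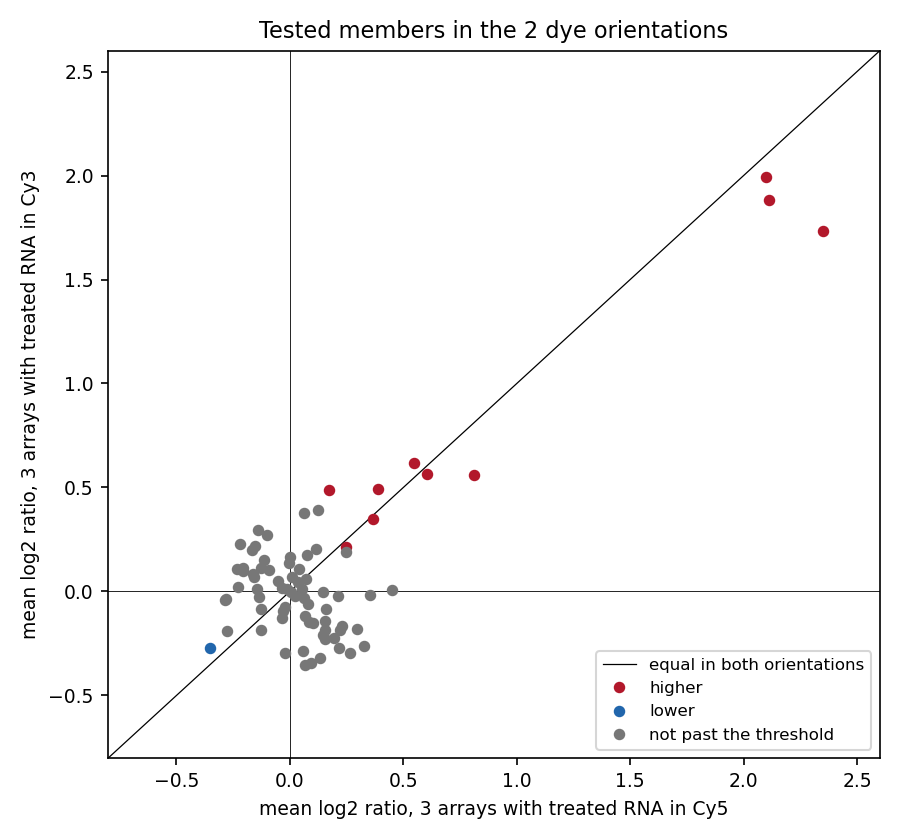
Mean log2 ratio of treated over untreated cells of each of the 78 tested members on the 3 Cy5 arrays (x axis) and on the 3 Cy3 arrays (y axis). The 11 members past the threshold lie on the same side of 0 in both orientations, and many of the others lie on opposite sides.

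Of 96 member probes measured on all arrays, 12 (12.5%) leaned to the same dye on all 6 before the signs were turned, beside 13.9% of all 13224 such probes. The strongest was 1 of the Cd6 probes, which averaged -0.60 on the Cy5 arrays and 0.66 on the Cy3 arrays. The median size of the dye term was 0.12 over the tested members and 0.09 over all features, and the median SD of the sets was 0.10 and 0.08. By group the median size of the dye term ran from 0.03 for adhesion molecules and surface glycoproteins to 0.18 for sialic acid binding lectins. It was 0.13 for T and NK cell antigens.

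Members without a complete probe were not tested. Cd24a and Clec12b had no value on any array. Cd44, the gene of the hyaluronan receptor, had 1 value, 0.42. Cd55, which encodes a complement regulator, had 2 probes with values on 5 arrays each and means of -0.11 and -0.21. Cd209b was measured on 4 arrays, between -0.39 and -0.06, and Cd34 on 4, between -1.37 and 0.48. Cd209g, of the DC-SIGN family, had 0.50 on the Cy5 array of set 2 and -1.05 and -0.95 on the Cy3 arrays of sets 2 and 3, again leaning to Cy5 on each array. With missing values allowed, 81 members could be fitted, and 10 were higher and 1 lower. A second probe of Cd7, named here after its values were seen, gave -3.12 and 2.73 on the 2 arrays of set 1, both of them a lean to Cy3.

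The proteins through which these receptors signal, or with which they pair, were followed as a list of 23 genes from textbook knowledge, of which 16 were tested. A total of 4 were higher and 3 lower, beside 7.35% and 7.45% of all features, and the median was -0.02. The list was chosen by hand and was not tested as a group. Bcl10, the scaffold between Card9 and Malt1, stood at 0.76 ± 0.04 (1.70-fold, adjusted p = 0.000197). The kinase gene Prkcd was at 0.33 ± 0.03 (adjusted p = 0.00502), Ptpn11, which encodes SHP-2, at 0.27 ± 0.10 (adjusted p = 0.0242), and the adaptor gene Dok2 at 0.25 ± 0.10 (adjusted p = 0.0301). Without set 3 the adjusted p of Prkcd, Ptpn11 and Dok2 was 0.0832, 0.154 and 0.24, and without the Cy5 array of set 2 it was 0.0523, 0.0827 and 0.148. Without the Cy3 array of set 2 it was 0.0582, 0.277 and 0.153. Ptpn11 also missed the threshold without set 1 (0.0794) and without any single array but the Cy5 array of set 3 (0.0658 to 0.277), and Dok2 without any single array (0.0535 to 0.153).

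The lower partners were Inpp5d, Sirpa and Dok1. Inpp5d, the gene of the lipid phosphatase SHIP1, was lower at -0.47 ± 0.06 (1.38-fold, adjusted p = 0.00167). Sirpa, the gene of the receptor of CD47, was lower at -0.48 ± 0.05 (1.40-fold, adjusted p = 0.00135), while Cd47 itself was higher. The adaptor gene Dok1 was lower at -0.53 ± 0.04 (1.44-fold, adjusted p = 0.000826). All 3 were lower on 6 of 6 arrays. Syk (-0.08 ± 0.24, adjusted p = 0.639) and the adaptor genes Fcer1g (0.05 ± 0.04, adjusted p = 0.502) and Tyrobp (-0.02 ± 0.05, adjusted p = 0.835) did not pass. Ly86, which encodes the partner of the Cd180 product, was at -0.11 ± 0.07 (adjusted p = 0.225).

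**Figure D5:**
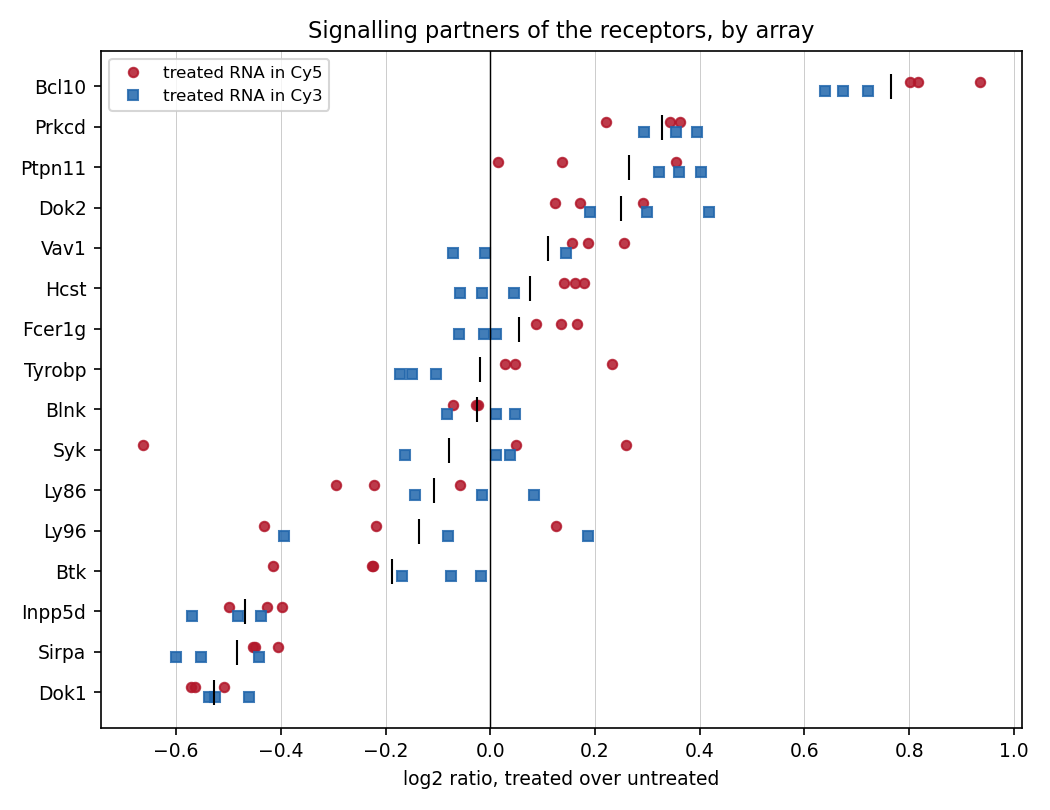
Log2 ratio of treated over untreated cells (x axis) for the 16 tested signalling partners (y axis), 1 point per array, circles for Cy5 arrays and squares for Cy3 arrays, and a vertical tick at the mean. Bcl10 lies above 0 and Inpp5d, Sirpa and Dok1 below 0 on all 6 arrays.

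The calls of Clec4e, Lilr4b, Lilrb4a, Clec4d and Cd52 were kept under all 18 alternatives in which single genes were fitted. The other 6 members past the threshold lost it under at least 3 of them. Without the Cy5 array of set 2, these 5 were the only members past the threshold, and 0 were lower by limma (0 also without set 3, when 7 were higher). When a single array was left out, its set kept only the other orientation, so its dye difference was not averaged out. For calls lost in those fits, loss of dye balance and loss of a value cannot be told apart.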

How the data were processed

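Total RNA of treated and untreated cells was hybridised together on 6 arrays, 1 in each dye, per the labels. The deposited table holds a log2 ratio per probe and array for 16281 probes. The log base was read from the values: divided by log2 of 10, between 87.3% and 92.8% of non-zero values ended within 7 decimals (tolerance 0.001 of the last), against at most 0.284% for other bases. Scanner, background correction and dye normalization: not given in the sources used here. The medians of the arrays lay between 0.00 and 0.02, exact zeros filled 10.8% of the table, and signal over background is not used here. Probes were named through the platform annotation, and all 86 members matched RefSeq by gene ID. The members and lists were chosen with earlier results of these data known.

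The test was limma 3.58.1 in R 4.3.3 (lmFit, eBayes, two-sided, prior degrees of freedom 4.16) on 3 set means. The arrays were paired by the set numbers in the labels. Each array was taken less the average of its dye group, before signs were turned. The Cy5 and Cy3 array of a set then had r of 0.40, 0.43 and 0.14 over features. A set-specific difference between the RNAs would give a negative r there, so these values do not show that the pair shared RNA. After turning, the consensus correlation within sets was -0.44. Averaging lowers the SD of the sets where the 2 arrays of a set lie on either side of the mean, as for Cd274 in set 2 (0.22 and 0.92). Without a set block, single arrays gave 1376 features past the threshold, against 1663. On simulated data with 200 of 11231 features changed, 33% were recovered at a change of 0.3, 93% at 1 and 99.6% at 2 (log2), with 2.39% false calls. The simulated noise was normal, with each feature's SD of the sets. It was independent between features and sets and held no dye effect. These rates describe that setting and are not the false calls among the array data.

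Named are all members past the threshold, Clec5a and Cd22 by probe, incomplete probes with 3 or more arrays and a mean at least 0.5 from 0, and up to 3 others per group with the largest values. Genes named beyond this rule were chosen after their values were seen. Alternatives left out sets or arrays, used 1 orientation or single arrays, centred arrays, kept zeros, allowed missing values, tested probes singly or used a robust prior.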

Additional observations from a re-analysis of the deposited data

Results flagged for a closer look

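The second Lilrb4a probe lay outside the test because it had values on 3 arrays only. On those it averaged 2.23, with the same sign on each. All 3 were Cy5 arrays, so no dye-balanced value could be formed, and the complete Lilrb4a probe averaged 2.11 on the same arrays. No group held more than 3 arrays of 1 orientation, so single arrays far from the others were not looked for.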

How the results depend on the processing

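The count of members higher was 10, and ran from 5 to 13 when a set or array was left out, and it was 6 with the Cy3 arrays alone. The count of members lower was 1, and ran from 0 to 2 when a set or array was left out. It was 0 with the Cy3 arrays alone, 3 when single arrays were fitted with the set as random block, and 2 with each probe tested by itself. Over all features 1663 passed, and leaving out a set or array gave 533 to 1685, the Cy5 arrays alone 639, the Cy3 arrays alone 655, and zeros kept as 0 gave 962. Of the partners 7 passed, with 4 to 9 when a set or array was left out and 4 with the Cy5 arrays alone. Clec5a as a gene ran from -0.088 to 0.0732 when a set or array was left out, and was 0.11 with the Cy3 arrays alone. The cause of these moves was not tested. The set as a block is built into the main means. Fitting single arrays with no such block gave 10 members higher and 1 lower. The dye term with a fixed set block gave the same counts but not the same members. There Cd274 lost its call (adjusted p = 0.118), 10 calls were shared with the main fit, and another member passed instead. Cd47 lost the threshold under 8 of 18 alternatives, Cd274 under 6, Cd82 and Cd9 under 4 each, and Cd22 and Cd33 under 3 each, with no change of sign. The number of arrays limits the precision.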
